A study of Mus musculus with 2 samples.

Results

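The endothelial, lymphatic and pericyte genes described here are a set of 44 named genes of blood vessels, lymphatic vessels and the mural cells that wrap small vessels. Members were found by gene symbol in the gene tables of both libraries, and 43 of 44 matched 1 row each, of 43346 Ensembl genes in all. Robo4os, named in the set as a transcript opposite the endothelial receptor gene Robo4, matched no symbol and is not analysed here. The study holds 1 group, whole urinary bladder of C57BL/6J mice, adult at 8 weeks of age, with 2 libraries of polyadenylated RNA. The labels describe littermates of mixed sex, and both libraries name the same donor entry. The SD over n = 2 therefore describes only how far these libraries differ, and that difference may be technical. With 1 group there is no contrast between conditions, and no p is given.

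Blood vessels are lined by endothelial cells, which are held together by Cdh5 and Pecam1, respond to growth factors of the VEGF family through the receptor tyrosine kinases Flt1, Kdr and Flt4, and are kept quiescent by angiopoietins acting on Tek. Lymphatic vessels carry the transcription factor Prox1 and depend on Vegfc and Flt4. Pericytes cover capillaries and are marked by Rgs5 and Cspg4. In the bladder a dense capillary bed lies just beneath the urothelium, the lining epithelium, and larger vessels run through the connective tissue and the muscle.

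Several members make proteins of different function from 1 gene by alternative splicing, and the sequences at those points are shown here because the splice results below count reads across them. Vegfa (chr17:46016993-46032369, mm10, minus strand) encodes the main growth factor of endothelial cells. Exon 5 can be joined to exon 8, to exon 7 or to exon 6, which gives the forms known as VEGF120, VEGF164 and VEGF188. The exons between 5 and 8 encode residues that bind heparan sulfate, so the shortest form diffuses most freely. All 3 joins share the last 21 bases of exon 5 in lower case, and the capitals are the first 21 bases of the exon that follows.
Vegfa exon 5 to exon 8: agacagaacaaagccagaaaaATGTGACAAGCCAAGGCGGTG
Vegfa exon 5 to exon 7: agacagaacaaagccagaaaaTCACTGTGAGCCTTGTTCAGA
Vegfa exon 5 to exon 6: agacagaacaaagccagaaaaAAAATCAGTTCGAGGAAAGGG

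Flt1 (chr5:147561604-147726011, minus strand) encodes a VEGF receptor and a decoy. When exon 13 is spliced to exon 14 the product spans the membrane. When transcription runs on into intron 13 and ends there, the product is the soluble receptor, which binds ligand and carries no kinase. Lower case again marks the end of exon 13, and capitals mark the bases that follow in each transcript.
Flt1 exon 13 to exon 14: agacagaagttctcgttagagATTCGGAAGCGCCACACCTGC
Flt1 exon 13 into intron 13: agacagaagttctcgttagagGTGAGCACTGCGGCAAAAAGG
Vegfb (chr19:6982473-6987651, minus strand), a ligand of Flt1, uses a pair of acceptor sites in the same exon, which change the reading frame and so the C-terminus. Capitals mark the first bases after each acceptor.
Vegfb longer form: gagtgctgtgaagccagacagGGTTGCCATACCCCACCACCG
Vegfb shorter form: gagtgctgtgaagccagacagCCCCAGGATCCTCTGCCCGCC

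Egfl7 (chr2:26580014-26593120, plus strand) encodes a secreted endothelial protein and hosts the endothelial microRNA miR-126a. Its hairpin lies at chr2:26591357-26591429, and in most Egfl7 transcripts that span it the hairpin is intronic. The hairpin is shown with the mature 3p arm in capitals, and the mature arm with its seed, bases 2 to 8, in capitals (sequences from RefSeq, GRCm38.p6). The libraries hold polyadenylated RNA longer than mature microRNAs, so miR-126a itself was not measured.
Mir126a hairpin: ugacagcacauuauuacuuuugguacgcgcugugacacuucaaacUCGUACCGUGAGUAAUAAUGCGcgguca
miR-126a-3p: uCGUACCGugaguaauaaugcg

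Levels are in TPM, a transcript abundance divided by length and scaled to a fixed library total. In total 42 members reached 1 TPM in both libraries, against 32.7% of all Ensembl genes. Expected counts, which are estimated fragments, ran from 257 to 34859 per member and library among those 42, within gene totals of 99367453 in replicate 1 and 105057347 in replicate 2. The median of the 43 matched members, undetected Prox1 included, was 14.0 TPM, beside 15.0 TPM for all genes detected in both libraries. Among the 42 detected members the middle pair, Cdh5 and Cspg4, had means of 16.1 and 14.0 TPM. Mcam, Egfl7 and Rgs5 were at or above a mean of 100 TPM, 21 members lay between 10 and 100 TPM, and 18 lay between 1 and 10 TPM. Summed, the members took 0.122% and 0.133% of gene TPM in replicates 1 and 2 (mean 0.127% ± 0.008). Smooth muscle markers (Acta2, Myh11, Actg2 and Tagln) held 2.46% ± 0.096 for comparison. In whole tissue, fewer cells of a type and less RNA per cell cannot be told apart.

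**Figure D1:**
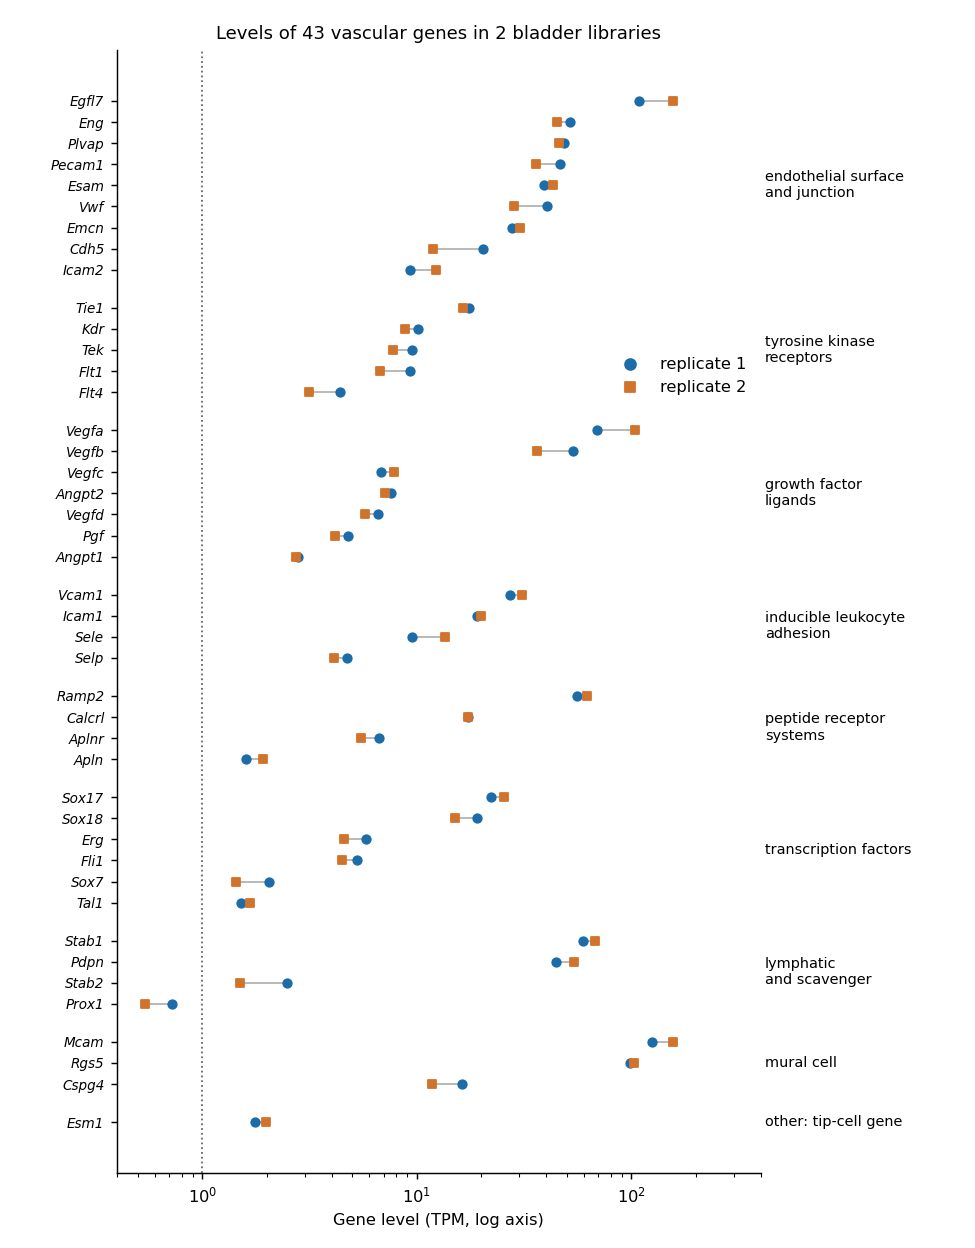
Gene level (TPM, log axis) of the 43 matched members in replicate 1 (circles) and replicate 2 (squares), grouped by role, with a dotted line at 1 TPM. Prox1 is the member left of the line in both libraries, and the gap between the libraries is wide for Cdh5 and Stab2 and hardly visible for Calcrl and Angpt1.

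The surface and junction genes of endothelium held 0.0430% ± 0.0019 of gene TPM, 34.3% of the members' sum in replicate 1 and 33.4% in replicate 2. Egfl7 led with 108 TPM in replicate 1 and 156 TPM in replicate 2. Eng, a TGF-beta co-receptor, had 51.8 and 45.0 TPM in replicates 1 and 2, and Plvap, which forms the diaphragms of fenestrated capillaries, had 48.6 and 45.8 TPM. The ranges of Eng and Plvap overlapped, whereas Egfl7 lay above both in each library. Pecam1, an adhesion molecule of endothelial junctions, had 46.3 and 35.9 TPM, and Esam, another, had 39.1 and 43.0 TPM. Vwf, which carries clotting factor and recruits platelets, had 40.3 and 28.4 TPM. Emcn, a sialomucin of veins and capillaries, had 29.0 ± 1.9 TPM. Cdh5 (VE-cadherin, chr8:104101625-104144511), the defining adhesion protein of endothelial junctions, had 20.3 and 11.9 TPM, and Icam2 had 9.26 and 12.3 TPM. Pecam1 exceeded Cdh5 by a log2 ratio of 1.39 ± 0.28 (n = 2), beyond the spread.

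Among the receptor tyrosine kinases Tie1 was the highest, with 17.6 and 16.4 TPM in replicates 1 and 2. Tie1 is an orphan partner of Tek, which had 9.49 and 7.71 TPM, and the log2 ratio of Tek to Tie1 was -0.99 ± 0.14. Kdr, the main signalling receptor for Vegfa, had 10.1 and 8.82 TPM. Flt1 had 9.30 and 6.72 TPM, below Kdr within each library by a log2 ratio of -0.26 ± 0.19. Flt4, the receptor for Vegfc and Vegfd and in adult tissue mainly a lymphatic gene, had 4.39 and 3.14 TPM and lay below Kdr by 1.35 ± 0.20 on the log2 scale. All 5 receptors were lower in replicate 2. Together they held 0.00503% ± 0.00055 of gene TPM, less than the ligands.

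The ligands held 0.0171% ± 0.0015, most of it Vegfa, at 68.9 and 104 TPM in replicates 1 and 2, and Vegfb, with 53.3 and 36.2 TPM. Vegfa was higher in replicate 2 and Vegfb in replicate 1, so the log2 ratio of Vegfa to Vegfb was 0.37 in replicate 1 and 1.52 in replicate 2. Vegfa exceeded the lymphatic growth factor Vegfc (6.80 and 7.86 TPM) by a log2 ratio of 3.53 ± 0.27 and the Flt1 ligand Pgf (4.80 and 4.16 TPM) by 4.24 ± 0.56. Vegfc and Vegfd (6.57 and 5.71 TPM) differed by 0.26 ± 0.29 on the log2 scale, less than the spread. Of the angiopoietins, Angpt2, which antagonises Tek in many settings, had 7.54 and 7.07 TPM, and Angpt1, the agonist, had 2.78 and 2.72 TPM. Their log2 ratio, Angpt1 to Angpt2, was -1.41 ± 0.04, and the ranges were apart. Vegfa is made by many cell types other than endothelium, and whole tissue does not show which.

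Of the adhesion molecules that capture leukocytes, Vcam1 (27.3 and 30.9 TPM in replicates 1 and 2) exceeded Icam1 (19.1 and 19.9 TPM) by a log2 ratio of 0.57 ± 0.09. Icam2, a constitutive relative listed with the surface genes, lay below Icam1 by 0.87 ± 0.24. The selectins start leukocyte rolling. Sele, which endothelium makes when activated, had 9.51 and 13.5 TPM, and Selp, stored in endothelium and platelets, had 4.72 and 4.10 TPM. Sele was the higher in both libraries, by a log2 ratio of 1.37 ± 0.50.

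Ramp2, the accessory protein that makes Calcrl an adrenomedullin receptor, had 55.8 and 62.1 TPM. Over protein-coding transcripts alone it had 33.8 and 36.2 TPM, and the retained-intron Ramp2-205 held 33.3% ± 0.06 of gene TPM. Calcrl had 17.4 and 17.3 TPM, and Ramp2 exceeded it by a log2 ratio of 1.77 ± 0.11. Not divided by length, the counts of Calcrl were the higher, and the log2 ratio turned to -0.47. The ligand Adm had 12.2 and 14.6 TPM. In the apelin system the receptor Aplnr (6.69 and 5.48 TPM) exceeded its ligand Apln (1.59 and 1.92 TPM) by 1.79 ± 0.40. Apela, the other ligand of Aplnr, had 0.59 and 0.63 TPM.

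The transcription factors were led by the SoxF genes, which act in arterial and lymphatic specification. Sox17 had 22.2 and 25.5 TPM in replicates 1 and 2, and Sox18 had 19.1 and 15.0 TPM. Sox7, of the same subgroup, had 2.04 and 1.44 TPM and lay below Sox17 by 3.80 ± 0.50 on the log2 scale. In TPM Sox18 lay below Sox17 by 0.49 ± 0.39 in log2, but the mm9 RPKM values put Sox18 higher, with a log2 ratio of 0.16. The ETS factors Erg (5.81 and 4.58 TPM) and Fli1 (5.28 and 4.48 TPM), which maintain endothelial identity, had a log2 ratio of -0.09 ± 0.08, Fli1 to Erg, a sign that turned under the mm9 values (0.21). Tal1, a factor of blood and endothelial progenitors, had 1.51 and 1.67 TPM. Esm1, a proteoglycan of sprouting tip cells, was also low, with 1.76 and 1.97 TPM.

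Prox1 (chr1:190118035-190170714), which sets lymphatic identity, had 0.72 and 0.54 TPM, from 417 and 339 counts, and was the 1 member under 1 TPM. Pdpn, a mucin-like surface protein of lymphatic endothelium that fibroblasts and mesothelium also carry, had 44.7 and 54.1 TPM. Pdpn exceeded Prox1 by a log2 ratio of 6.30 ± 0.49. Of 6 other lymphatic markers 5 were detected, beside 32.7% of all Ensembl genes. Ccl21a had 80.5 and 97.7 TPM, Lyve1 had 15.0 and 19.5 TPM, and Foxc2 had 0.70 and 0.35 TPM. The scavenger receptor Stab1, of sinusoidal and lymphatic endothelium and of macrophages, had 59.3 and 67.8 TPM. Its relative Stab2 (chr10:86841198-87008025) had 2.49 and 1.5 TPM, lower by 5.04 ± 0.65 on the log2 scale. Macrophage markers were abundant beside Stab1 (C1qb 112 and 131 TPM, Csf1r 30.7 and 32.7 TPM), and their part in the level of Stab1 was not tested.

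The mural cell genes held 0.0275% ± 0.0027 of gene TPM, more than any role group but the endothelial surface genes. Not divided by length, the order turned: by share of expected counts the mural genes held 0.0692% and the surface genes 0.0569%. Mcam (CD146, chr9:44134469-44142727), an adhesion molecule of pericytes, smooth muscle and endothelium, had the highest mean (141 ± 21.8 TPM), with 125 and 156 TPM. Its range overlapped that of Egfl7 (132 ± 34.1 TPM), which stood at the same rounded level in replicate 2. Rgs5 (chr1:169655501-169695813), a regulator of G protein signalling, had 99.0 and 103 TPM. Cspg4 (NG2), a proteoglycan of pericytes and smooth muscle, had 16.3 and 11.8 TPM, below Rgs5 by 2.87 ± 0.37 on the log2 scale. All 8 further pericyte markers were detected, from 2.63 TPM for Higd1b to 26.1 TPM for Pdgfrb, beside 32.7% of all Ensembl genes. The smooth muscle marker Acta2 stood at 8841 and 8508 TPM, and its cells also express Mcam and Cspg4. How the mural genes divide between pericytes and smooth muscle was not tested.

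Over the full order of 43 levels, 10 of 42 neighbouring pairs had ranges that did not overlap, so most neighbours did not differ beyond their spread. Of the 20 pairs of members compared as log2 ratios, 19 had the same sign in both libraries and a mean above its SD, Vegfc over Vegfd being the exception. In the deposited mm9 RPKM values, which come from the same libraries, 9 of the 10 highest members were the same. Across the 43 genes, which are not independent replicates, the Spearman correlation between TPM and RPKM was 0.990.

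Gene levels sum over all transcripts, and for several members most of that sum came from transcripts not annotated as protein coding. Transcripts that the later annotation, GENCODE M21, does not list were not counted as protein coding, and whether they encode protein is not known here. Of 29 detected members with more than 1 quantified transcript, 19 had a transcript above 50% of gene TPM in both libraries, and the leading transcript was protein coding in 26. In 30 detected members protein-coding transcripts held over 90% of gene TPM in both libraries. They held under 50% in both for Vwf, Stab1 and Stab2. These counts were not made over all genes, so they do not set the members apart from other genes.

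In Vwf (chr6:125546774-125686679) protein-coding transcripts accounted for 10.6% and 8.9% of gene TPM in replicates 1 and 2. The short noncoding Vwf-209, of 456 bases, led with 41.9% ± 1.3, and Vwf-210, annotated as a target of nonsense-mediated decay, held 36.9% ± 3.4. The full-length Vwf-203, of 8834 bases and encoding 2813 residues, had 3.71 and 2.07 TPM. A transcript of 8817 bases that the later annotation does not list had 4.79 and 1.90 TPM. That transcript was not counted as protein coding, so the Vwf percentages and rank given here leave it out. Ranked by listed protein-coding TPM, Vwf moved from place 13 among the members to place 35.

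In Stab1 the retained-intron transcripts Stab1-209 and Stab1-204 held 34.6% ± 1.1 and 25.1% ± 0.9. The full-length Stab1-201, of 2571 residues, had 11.8 TPM in replicate 1 and 14.2 TPM in replicate 2. On the protein-coding scale Stab1 moved from place 5 to place 19. In Stab2 a transcript that the later annotation no longer lists held 81.4% ± 0.1, and the full-length Stab2-201 had 0.46 and 0.28 TPM. Erg had 46.6% and 31.7% of its TPM in such unlisted transcripts, and 3.10 and 3.12 TPM in protein-coding ones.

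**Figure D2:**
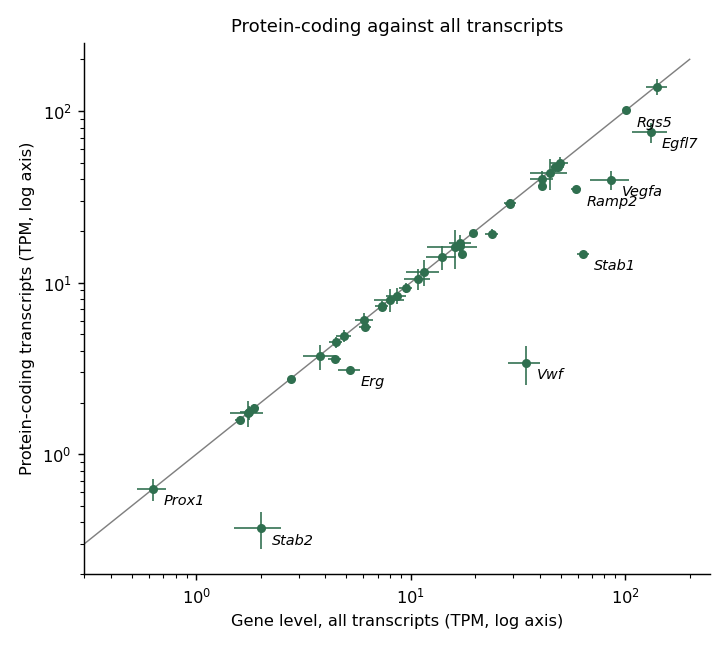
Mean TPM of protein-coding transcripts against mean TPM of all transcripts of each of the 43 members (log axes). Bars span both libraries and the line marks equality. Most members lie on the line, and Vwf, Stab1 and Stab2 lie farthest below it.

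In Egfl7 the transcripts that begin downstream of the Mir126a hairpin shown above took 59.5% and 65.7% of gene TPM in replicates 1 and 2 (62.6% ± 4.4, 5 transcripts). The leading one, Egfl7-211, begins 5 bases past the last base of the hairpin and held 24.6% ± 0.8. Over protein-coding transcripts alone Egfl7 had 75.2 ± 14.5 TPM. That sum includes Egfl7-211, which encodes 79 residues and had 26.0 and 39.2 TPM. Egfl7-214, a retained-intron transcript that begins 17 bases past the hairpin, held 21.2% ± 2.7. The 8 transcripts that carry the hairpin in an intron held 36.7% and 29.8%. Among them the full-length Egfl7-202, encoding 278 residues, had 24.5 and 24.9 TPM, close in both libraries. Egfl7-201, of the same class and encoding 265 residues, was higher in replicate 2, with 10.1 and 16.3 TPM. The higher gene level in replicate 2 lay mostly in the downstream transcripts, which summed to 64.3 TPM in replicate 1 and 103 TPM in replicate 2. The files hold no measure of 5′ ends, so whether these transcripts are separate starts or processed remnants was not tested.

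In the junction reads of Vegfa, deposited as 1 sum over both libraries, 1479 reads left exon 5. The join to exon 7 (VEGF164 type) took 758 reads or 51.3% (exact 95% binomial interval, counting error only, 48.7% to 53.8%). The join to exon 8 (VEGF120 type) took 583 reads or 39.4% (36.9% to 42.0%), and the join to exon 6 (VEGF188 type) took 138 reads or 9.33% (7.90% to 10.9%). The 3 intervals did not overlap.

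The transcript tables gave the same order among transcripts that contain exon 5. VEGF164 type held 49.4% ± 3.3, VEGF120 type 38.7% ± 2.6 and VEGF188 type 11.9% ± 0.7. These shares include retained-intron transcripts. Vegfa-205 (VEGF164 type) had 11.5 and 22.8 TPM in replicates 1 and 2, Vegfa-210 (VEGF120 type) 10.5 and 14.2, and Vegfa-206 (VEGF188 type) 2.37 and 3.47. The shares of exon 6 and of the VEGF120 type depended on which junctions were counted. Of 1078 reads into exon 7, 320 (29.7%) came from exon 6. Of 1852 reads into exon 8, 583 (31.48%, interval 29.37% to 33.65%) came from exon 5. That interval lay below the one for VEGF120 type among reads leaving exon 5. Over all Vegfa transcripts, 5 retained-intron transcripts held 49.8% and 56.9% of Vegfa TPM in replicates 1 and 2. Protein-coding Vegfa transcripts had 34.6 and 44.7 TPM.

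Vegfb divided evenly at its acceptors, with 932 junction reads for the longer form and 933 for the shorter. In the transcript tables Vegfb-201, encoding 207 residues, held 52.2% ± 0.3 and Vegfb-202, encoding 188 residues, held 44.8% ± 2.3. Over protein-coding transcripts alone, a scale added after the data were seen, the mean log2 ratio of Vegfa to Vegfb turned to -0.12. On that scale Vegfa had 34.6 and 44.7 TPM in replicates 1 and 2, and Vegfb had 52.5 and 34.6 TPM. The libraries had unlike signs, so the pair did not differ beyond the spread.

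For Flt1 the membrane-spanning Flt1-202, of 1333 residues, held 62.7% ± 0.2 of gene TPM, and the soluble Flt1-203, of 688 residues, held 36.6% ± 1.3. By median, junction reads were fewer beyond the same point. Junctions 1 to 12, common to both forms, had a median of 158 reads (107 to 300), and junctions 13 to 29, found in the membrane form, had a median of 122 reads (63 to 183). The later median was 77.2% of the earlier. Flt1 junction 12 had 178 reads and junction 13 had 114. The ranges overlapped and the profile was uneven. Junctions 9 to 12 had 300, 243, 223 and 178 reads, and junctions 25 to 29 had 143 to 183. Kdr, split at the same junction number for comparison after the data were seen, went from a median of 181 to 201 reads, 111% of the earlier. The junction reads are pooled, so neither ratio has a replicate error.

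**Figure D3:**
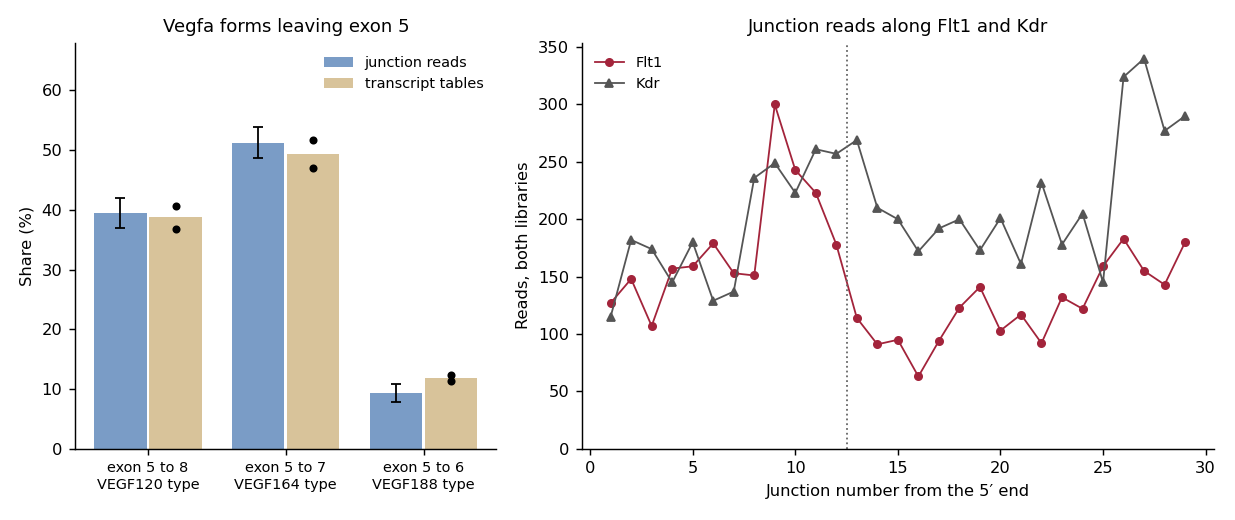
Left, share (%) of Vegfa joins out of exon 5 from junction reads (bars with 95% binomial intervals) and from the transcript tables (mean bars, points for each library). The transcript table shares include retained-intron transcripts. Right, reads per junction summed over both libraries along Flt1 (circles) and Kdr (triangles), with a dotted line after junction 12, where soluble Flt1 ends. Flt1 goes from 178 to 114 reads across the line, and Kdr from 257 to 269.

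The libraries were then set against each other, 1 against 1, on the log2(TPM + 0.5) scale relative to the median of all genes of at least 1 TPM, a scale that understates ratios of low genes. This compares the libraries only. Past 1.5-fold were 3 of 42 members, all higher in replicate 1, beside 8.28% of all genes past it in either direction (6.08% higher in replicate 1 and 2.21% higher in replicate 2). Cdh5 was 1.78-fold higher in replicate 1 (log2 of replicate 2 over replicate 1 -0.83, counting interval -0.89 to -0.77). Stab2 was 1.58-fold higher in replicate 1 (log2 -0.66, interval -0.82 to -0.50) and Vegfb 1.56-fold (log2 -0.64, interval -0.71 to -0.57). Vwf (1.49-fold) and Cspg4 (1.45-fold) lay just inside the threshold in the same direction. Vegfa (1.42-fold) and Egfl7 (1.36-fold) were the members most raised in replicate 2. Without centring, 1 member was past the fold in each direction, Vegfa higher in replicate 2 and Cdh5 higher in replicate 1. Among all genes past the fold, 26.7% were higher in replicate 2 with centring and 46.8% without.

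The median member lay at -0.17 on that scale, with 16 members above 0 and 26 below. The ratio moved with transcript length over all genes, and the members are given beside them. Of the members with a mean of at least 1 TPM, Cspg4, Flt1, Flt4, Kdr, Stab2, Tek and Angpt1 had an effective length of 4000 bases or more. They had a median of -0.51 and 7 of 7 lay below 0, beside a median of -0.18 and 2051 of 2630 below 0 for all genes of that length. Prox1, also in that class by length, is not counted because its mean was under 1 TPM (log2 -0.31). The 20 members of 2000 to 4000 bases had a median of -0.18 with 14 below 0, beside -0.02 and 53.9% for all genes. The 15 members under 2000 bases had a median of 0.05 with 10 above 0, beside 0.10 and 64.2% above 0 for all genes. Markers of adjoining tissue moved in both directions. Higher in replicate 2 by 1.5-fold or more were 4 of 4 adipocyte genes (Adipoq 23.4 and 58.9 TPM), 2 of 4 mesothelial genes and 1 of 4 nerve and glia genes, beside the 2.21% of all genes. Higher in replicate 1 were 2 of 4 fibroblast genes, Col1a1 and Pdgfra, and 1 of 4 smooth muscle genes, Myh11 (2113 and 1170 TPM), beside the 6.08%. None of 5 urothelial and 7 macrophage genes was past it. Of vessel markers with a mean of at least 1 TPM, 2 of 8 arterial and 1 of 8 pericyte genes were higher in replicate 1. In replicate 2, 1 of 4 capillary genes was higher, beside the same 6.08% and 2.21%. None of 4 venous and 5 lymphatic genes was past 1.5-fold. The part of length and of adjoining tissue in the members' differences was not tested.

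**Figure D4:**
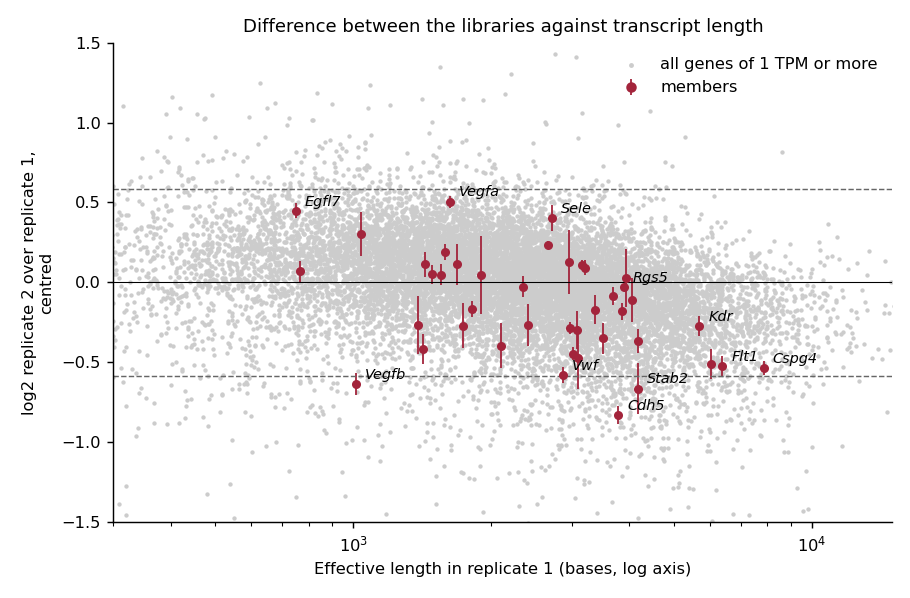
Difference between the libraries (log2 of replicate 2 over replicate 1, centred) against effective length (bases, log axis) for members (red, with 95% counting intervals) and all genes of at least 1 TPM (grey, those within the axes). Dashed lines mark 1.5-fold. The 7 members of 4000 bases or more with a mean of at least 1 TPM lie below 0, and Cdh5, Stab2 and Vegfb lie below the lower line.

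A list of other genes of vascular signalling was measured beside the members. Of 17 pathway partners 16 were detected, beside 32.7% of all Ensembl genes. Past 1.5-fold were 2, both higher in replicate 1, beside 8.28% of all genes past it and 6.08% higher in replicate 1. These were Epas1, the hypoxia factor of endothelium (30.7 and 16.3 TPM), and Mmrn2, a matrix protein of endothelium (9.86 and 6.07 TPM). The tight junction gene Cldn5 had 31.9 and 36.4 TPM, the VEGF co-receptor Nrp1 had 18.2 and 17.1 TPM, the nitric oxide synthase Nos3 had 5.83 and 5.50 TPM, and Robo4 had 8.17 and 7.68 TPM. All of these lay within 1.5-fold.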

How the data were processed

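Polyadenylated RNA of bladder was sequenced in 2 stranded, paired-end libraries. The authors deposited, per the file headers, expected counts (fractional fragment estimates), TPM and a posterior mean TPM for each library on mm10 with GENCODE M4. The quantification tool is not given in the sources used here. The authors deposited mm9 RPKM values that no label ties to a replicate, so their mean was used, and junction read counts summed over both libraries. Rows that are not Ensembl genes took 5.01% and 5.98% of expected counts and were left out. Symbols, positions, transcript types and transcript sequences come from GENCODE M21, which lists 167 of the 178 transcripts quantified for the members, 158 of them at the same length. RefSeq gave the microRNA.

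Detection means 1 TPM in both libraries. Shares are percent of all gene TPM. The fold between libraries used a pseudocount of 0.5 TPM, a mean of at least 1 TPM and the median of 14533 genes as centre (0.08 in log2), with expected counts rounded for the exact binomial interval. The ratio and its interval were tested on simulated data. Intervals cover counting error only. The rule names all members, with values in both libraries for the 3 highest of each role group, those under 1 TPM and those in the compared pairs. The members, lists and pairs were chosen with earlier results of these data known. Alternatives were other detection levels, pseudocounts, filters and folds, the posterior mean TPM, counts, DESeq2 1.42.0 size factors, edgeR 4.0.16 TMM factors, the mm9 values, each library alone and, added after the data were seen, protein-coding transcripts. Python 3.11.15 was used with pandas 2.3.3 and scipy 1.17.1.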

Additional observations from a re-analysis of the deposited data

How the results depend on the processing

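The count of detected members ran from 31 (mm9 RPKM) to 43 under the alternatives run, and the count of members with a leading transcript above 50% was 19 under each. The members' summed share was 0.219% of expected counts, 0.152% of TPM without mitochondrial genes in the total and 0.164% of mm9 RPKM, so it depends on the scale. Past 1.5-fold, 2 to 4 members were found under other pseudocounts, filters and scalings, Cdh5 among them each time, and 0 members were past 2-fold, against 1.84% of all genes. Vwf was past 1.5-fold under a pseudocount of 0.1 TPM, a filter of 5 TPM and all 3 count scalings. Of 140 alternatives for the pairs 6 turned the sign: Ramp2 to Calcrl without length (-0.47), Sox18 to Sox17 in mm9 RPKM (0.16), Fli1 to Erg without length (0.52), in mm9 RPKM (0.21) and over protein-coding transcripts (0.65), and Vegfa to Vegfb over protein-coding transcripts (-0.12). The cause was not tested. Over protein-coding transcripts Vegfa to Vegfb had unlike signs in the libraries, so that turn was not beyond the spread. With the mean of both exon 6 junctions, the VEGF164 type had 48.3% and the VEGF188 type 14.6% of Vegfa joins, and the transcript tables gave the latter 11.9%. By means, the Flt1 ratio was 70.0%.

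Leaving out a replicate gave 42 detected members either way, a summed share of 0.122% to 0.133%, and 19 members with a leading transcript above 50%. The fold between libraries and the pooled junction reads allow no such repeat. No paired analysis was possible because there is only 1 group. Depth limits the low members most: for Esm1 (257 and 316 counts) the counting interval of the log2 ratio ran from -0.20 to 0.29.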
